A study of Mus musculus with 186 samples.

Results

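The data described here are the wild-type libraries of somatosensory cortex (SSC) at 12 weeks of age against those at 4 weeks, 10 of the 186 bulk RNA-seq libraries of a study of Akap11 mutant mice. The libraries were chosen by their labels, with earlier results of these data known. They are 5 libraries of wild-type (WT) SSC at 4 weeks, labelled 142, 23, 913, 914 and 92, and 5 at 12 weeks, labelled 1 to 5. The gene lists used below were chosen with the same knowledge. WT mice carry no Akap11 mutation, and no agent was given to any group per the labels. Akap11 encodes an anchoring protein that tethers protein kinase A, and the study compared mutants with WT in several brain regions at both ages. Here WT alone is followed over age, with 4 other sets of libraries set beside it: SSC of Akap11 +/- (HET, 6 libraries at 4 weeks and 5 at 12) and Akap11 -/- mice (KO, 5 and 5), WT prefrontal cortex (PFC, 5 and 5) and WT hippocampus (HP, 6 and 5). The labels give no sex, strain, allele design or collection date for these animals. Tissue was cut from frozen brains in a cryostat, and libraries were made from poly(A)-selected RNA with a stranded kit.

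In the rodent cortex, neurons are born and reach their layers before or soon after birth, and the weeks after weaning are a period of refinement. Oligodendrocyte progenitors go on producing myelinating cells, synapses are pruned and stabilised, and a matrix of chondroitin sulphate proteoglycans condenses around parvalbumin interneurons. Genes for neurite outgrowth are known to decline as circuits mature, and genes of fast-spiking interneurons to rise with them.

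The libraries held between 36.9 and 55.2 M counts (M, mega) at 4 weeks and between 41.1 and 51.9 M at 12 weeks, within the 20.8 to 73.3 M of the whole series. Every age comparison here also compares separate collections of tissue, so age and collection cannot be told apart. The labels do not say that each library came from its own animal, and the p-values then measure only the spread between these samples. Whole numbers made up 5.34% of the values above 0 in the 4-week library 142 and 4.80% in 914, while the other 8 WT SSC libraries had 20.3% to 35.5%, and counts of each gene list are also given without this pair, 142 and 914, where they differ. Akap11 lay between 205 and 243 CPM (counts per M) of the library total in WT SSC, between 111 and 132 in HET and between 9.65 and 16.9 in KO, in the order of the labels. Xist was at most 0.048 CPM in every SSC library, and the Y-linked Ddx3y was present in all of them. Markers of the labelled tissue were present in all 10 libraries: Slc17a7, the vesicular glutamate transporter of cortical excitatory neurons, read 1197 CPM or more, and the upper-layer gene Cux2 read 218, 189, 249.5, 231 and 229 CPM in the 12-week libraries 1 to 5. CPM values of genes, from Slc17a7 on, are scaled by TMM factors within the WT SSC libraries. Those of HET and KO below are scaled within the SSC libraries of each genotype. A log2 fold change above 0 means higher at 12 weeks.

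Of 15686 genes tested with edgeR, 3579 were called at a Benjamini-Hochberg adjusted p under 0.05, which is 22.8% of them. At 12 weeks 1658 were higher (10.6%) and 1921 lower (12.2%), so that 46.3% of the calls were higher. With upper-quartile scaling this split moved to 2135 higher and 1641 lower, or 56.5% higher. Most changes were small. Called genes had a median absolute change of 0.37 on the log2 scale, and the signed median over all tested genes was 0.02. Only 320 genes were called and at least 1.5-fold higher (2.04%) and 402 at least 1.5-fold lower (2.56%), and the figures at 2-fold were 92 (0.587%) and 79 (0.504%). The 5 libraries of each age did not overlap for 2793 genes (17.8%, with 8.25% higher and 9.56% lower), of which 2491 were called. Without libraries 142 and 914, 3130 genes were called (19.5%). All 3579 genes kept their direction, 2475 of them stayed called, and the median shift of the log2 fold change was 0.06. In bulk tissue, fewer cells of a type and less RNA per cell cannot be told apart.

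The age change followed GC content, transcript length and abundance. With genes split into 5 equal bins by GC content, the median log2 fold change ran from 0.10 in the bin lowest in GC to -0.12 in the bin highest. In the lowest bin 16.4% of genes were called higher and 5.26% lower, and in the highest bin 4.74% were higher and 23.8% lower. By annotated transcript length the medians ran from 0.10 for the shortest bin to -0.09 for the longest, where 23.8% were called lower. Spearman's rho across genes was -0.27 with GC content and -0.25 with length, given as a description because genes share the same 10 libraries. By abundance, the average log2 CPM over the libraries, the medians ran from 0.13 in the lowest bin to -0.13 in the highest, where 2.70% of genes were called higher and 26.5% lower. The rho with abundance was -0.33, with -0.05 in HET SSC, -0.28 in KO SSC, -0.37 in WT PFC and -0.02 in WT HP. The same sign of the rho with GC content was found in HET SSC (-0.31), KO SSC (-0.23), WT PFC (-0.31) and WT HP (-0.17). When the trends with GC content and length were removed from each library by a smooth offset, an alternative chosen after seeing the data, 2232 genes were called (14.2%), 1046 higher (6.67%) and 1186 lower (7.56%). Of the original calls 1774 remained in the same direction. The offset does not take in abundance, and in the most abundant bin 1.81% were then called higher and 11.9% lower. Counts in each gene group below are given with this adjustment where it changes their number.

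**Figure D1:**
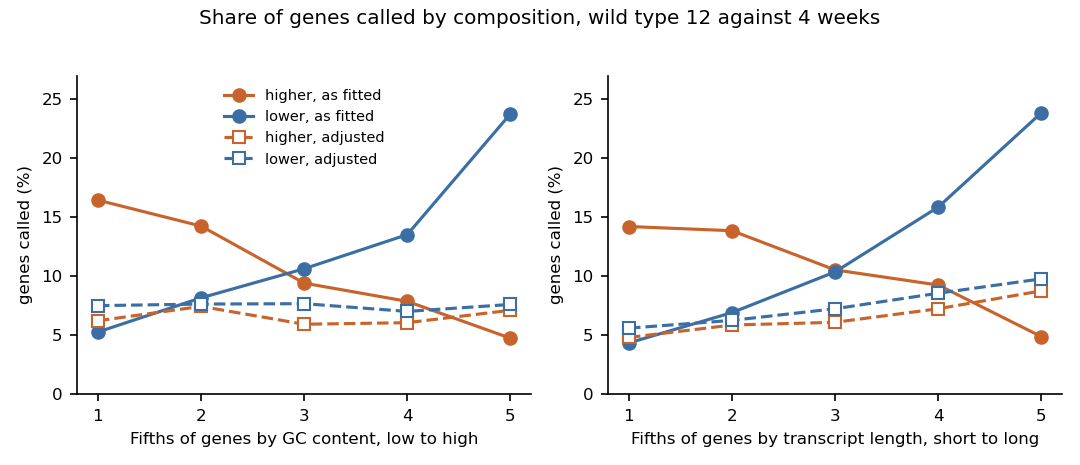
Percent of genes called higher (orange) or lower (blue) at 12 weeks in WT SSC, in 5 bins of GC content and of transcript length. Solid lines are the counts as fitted and dashed lines with open squares are after adjustment for GC content and length. As fitted, calls of higher genes drop from 16.4% to 4.74% from the lowest to the highest bin of GC, and the adjusted lines are nearly level.

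Genes of neurite growth fell with age. Marcksl1 (chr4:129513581-129515985, plus strand, GRCm38), a relative of the actin-binding kinase substrate MARCKS that is high in growing neurons, read 78.5, 68.2, 57.4, 81.5 and 64.4 CPM in the 4-week libraries 142, 23, 913, 914 and 92. In the 12-week libraries 1 to 5 it read 18.3, 15.8, 22.5, 23.4 and 21 CPM. The ages lay far apart, and the log2 fold change was -1.79 ± 0.11 (SE), with an edgeR adjusted p of 1.07e-06. The gene fell in HET (-1.75) and KO (-1.87) as well, on the same log2 scale. Dpysl2 (chr14:66802864-66868688), which encodes the microtubule-binding protein CRMP2 of axon outgrowth, read 367, 309.8, 253, 326 and 308 CPM at 4 weeks and 116, 134, 126, 136 and 131 CPM at 12 weeks, in the same library order. They did not overlap, with a log2 fold change of -1.28 ± 0.10 and an edgeR adjusted p of 3.43e-06. The 4-week libraries 142 and 914 stood at the top of Marcksl1 and Dpysl2, and without both the log2 fold changes were -1.66 and -1.18.

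Of the 24 tested members of a list of immature neuron and axon growth genes, 14 were called lower and 0 higher. Of all genes tested 12.2% and 10.6% were, and of the most abundant bin 26.5% and 2.70%. The list's median log2 fold change was -0.32. After the GC and length adjustment 11 were lower, leaving out any 1 library gave 11 to 14, and without the pair 12 of 25 were lower. In HET and KO 13 and 12 members were lower, where 13.6% and 10.9% of all genes were, and 14.0% and 9.9% were higher. The transcription factors Sox11 (-0.69 ± 0.12) and Sox4 (-0.28), which drive early neuronal differentiation, both fell. The microtubule genes Dcx (-0.41 ± 0.11), Tubb2a (-0.62), Tuba1a (-0.47) and Crmp1 (-0.46) fell, as did the membrane and actin genes Ncam1 (-0.51), Marcks (-0.53) and Dbn1 (-0.32). Fabp7, a fatty acid binding protein of radial glia and young astrocytes, fell by 0.71. The growth cone genes Gap43 and Basp1 did not pass the test, and Gap43 was at -0.00 ± 0.08 (adjusted p = 0.985 by edgeR). Its 4-week libraries read 79.7, 85.8, 64.98, 73.2 and 64.9 CPM and its 12-week libraries 75.9, 76.2, 70.04, 79.7 and 66.1 CPM, with full overlap.

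Axon guidance genes held more falls than rises. Of 30 tested members 12 were called lower and 1 higher, against 12.2% and 10.6% of all genes, with a median log2 fold change of -0.20. With the GC and length adjustment 7 were lower and 3 higher, against 7.56% and 6.67% of all genes. Without the pair 13 and 0 were. The semaphorins Sema6a (-0.90 ± 0.08) and Sema4d (-0.66 ± 0.06) fell most. Sema4d was tight within each age, at 56.6, 58.2, 57.6, 58.4 and 56.5 CPM in the 4-week libraries and 33.1, 34.3, 37.6, 38.1 and 38.3 CPM in the 12-week libraries, and the ages did not overlap. Among receptors, the netrin receptor Dcc (-0.60), the plexins Plxnd1 (-0.57), Plxna4 (-0.40) and Plxna1 (-0.29), and Nrp1 (-0.33) fell. Among ligands, Slit2 (-0.57), Slit3 (-0.37) and Efna5 (-0.23) fell, and Robo1 and Robo2, the receptors of the Slit proteins, did not pass the test at -0.03 and -0.19. The ephrin receptor Epha7 was the only called rise (0.24 ± 0.07), and its adjusted p passed 0.05 in 4 of the 10 fits that left out 1 library, up to 0.0714 without 4-week library 23. Met, the receptor of hepatocyte growth factor and a regulator of synapse maturation in cortical projection neurons, was outside this list. It fell from 12.1, 14.5, 11.3, 11.9 and 12.6 CPM to 4.29, 4.11, 7.48, 4.48 and 5.43 CPM, with no overlap (-1.28 ± 0.15, edgeR adjusted p = 7.72e-05).

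Among the other large falls, Irf2bp2, a transcriptional corepressor, fell by 1.29 and Neurl1b, a ubiquitin ligase of Notch ligands, also fell by 1.29. The 12-week libraries of Neurl1b read 23.99, 23.1, 39.9, 33.8 and 32.99 CPM, and all lay below the 4-week values of 72.6, 75.7, 66.7, 84.5 and 76.1 CPM. Rnf122, a ubiquitin ligase, Tnfrsf25, a death receptor of T cells, and the muscle sarcomere genes Tnnc1 and Mybpc3 were low in cortex. These fell by 1.28, 1.40, 1.25 and 1.29. The largest fitted fall, Gdf1, is uncertain because Gdf1 shares a transcript with Cers1, which fell by 0.49. The mitochondrial gene mt-Nd6 fell by 2.00. It is read from the strand opposite to most mitochondrial genes, and no source used here says whether the counting used strand.

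**Figure D2:**
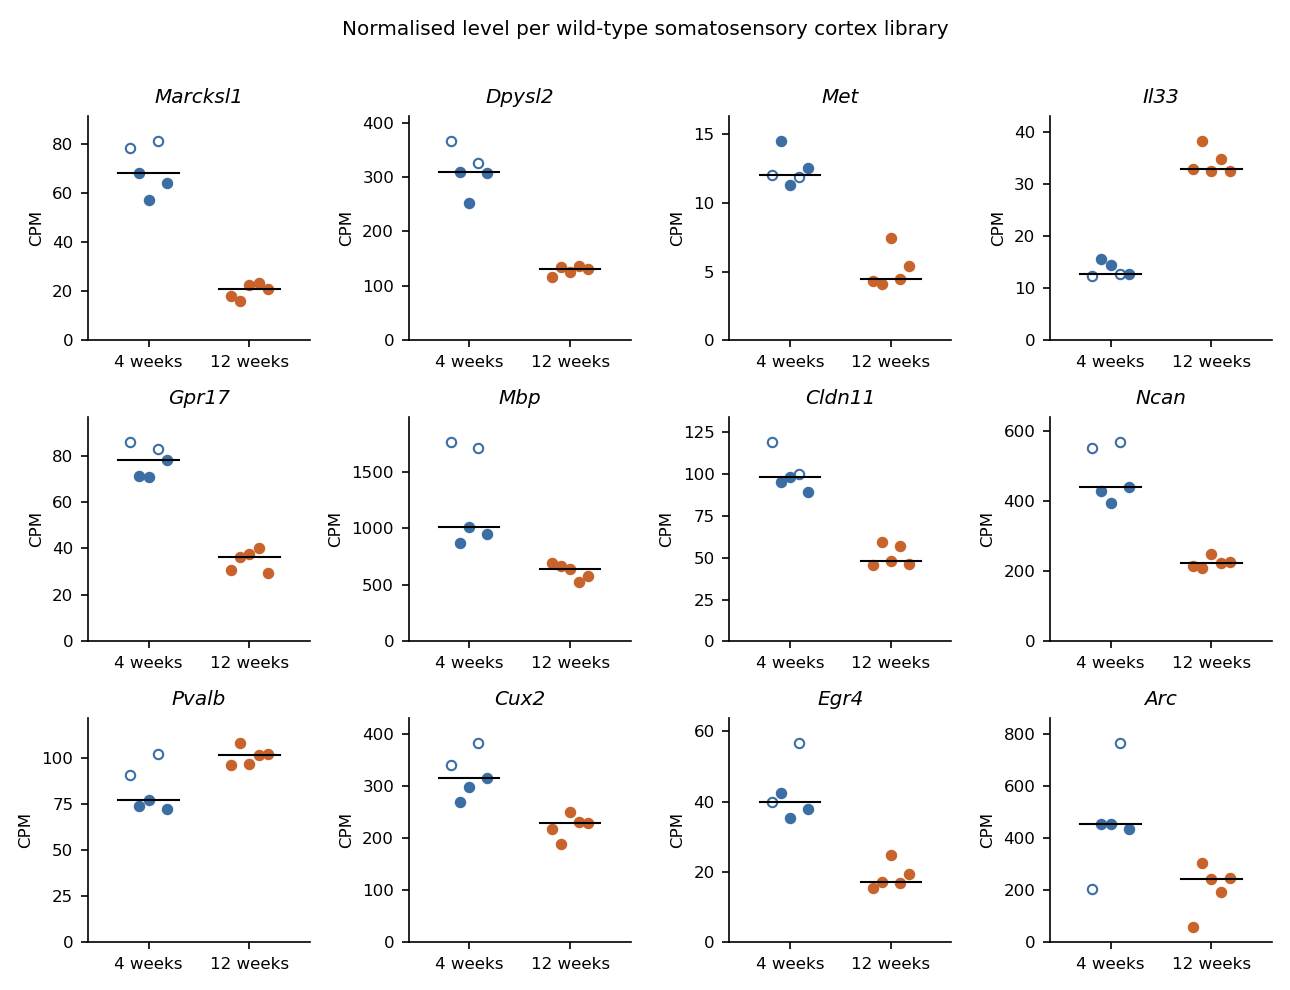
CPM per library (dots) of 12 genes in WT SSC at 4 and 12 weeks. The line marks the median and open circles mark the 4-week libraries 142 and 914. Marcksl1, Dpysl2, Met, Gpr17, Cldn11, Ncan and Egr4 are lower at 12 weeks in every library and Il33 is higher in every library, while Pvalb and Arc overlap between ages.

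The rise with the lowest p was that of Il33. Il33 (chr19:29925114-29960718, GRCm38), a cytokine that astrocytes and oligodendrocytes make in the postnatal brain, read 12.3, 15.6, 14.5, 12.8 and 12.7 CPM at 4 weeks and 32.8, 38.3, 32.4, 34.8 and 32.5 CPM at 12 weeks. The ages did not overlap, the log2 fold change was 1.33 ± 0.08 and the edgeR adjusted p of 7.89e-07 was the lowest of all genes tested. Il33 was called in HET (1.37), KO (1.64), WT PFC (1.34) and WT HP (1.81) too. Lrrc17, a secreted leucine-rich repeat protein, had the largest fold among the well expressed genes, at 27.8, 39.2, 74.6, 48.9 and 34.8 CPM against 433, 418, 179.9, 237 and 212 CPM (2.71 ± 0.29, adjusted p = 4.6e-05). The 12-week libraries 1 and 2 stood above the other 3, and all 5 lay above the 4-week range.

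Xdh, the xanthine oxidoreductase of purine breakdown, rose by 1.56 on the log2 scale, and was called in HET, KO, PFC and HP (1.62, 1.00, 1.98 and 1.93). The lipoxygenase Alox12b rose by 1.35, Cyp39a1, an oxysterol hydroxylase of bile acid synthesis, by 1.16, and the heat shock factor Hsf4 by 1.11. Cast, the inhibitor of calpain proteases, rose by 1.08 and the nuclear RNA Neat1 by 1.06. Prg4, the lubricating glycoprotein of joints (1.39 ± 0.24), and Grid2ip, a scaffold protein of glutamate receptors (1.13 ± 0.18), were low and rose. Neat1 read 31.9, 25.7, 39.3, 25.7 and 36.3 CPM at 4 weeks and 90.3, 64.5, 53.1, 62.6 and 60.7 CPM at 12 weeks. Its neighbour on chromosome 19, Malat1, chosen after its values were seen, overlapped between ages and did not pass the test (-0.38 ± 0.17, edgeR adjusted p = 0.124). The rise of Nanp, a phosphatase of sialic acid synthesis, was 1.51 ± 0.20 in WT and was not called in HET (0.77) or KO (-0.05). Lars2, the mitochondrial leucyl-tRNA synthetase, rose by 1.12, and it is uncertain because it holds a stretch resembling mitochondrial ribosomal RNA.

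Many oligodendrocyte genes fell, of the progenitor as well as the myelin stage. Gpr17, a receptor typical of committed progenitors and newly formed oligodendrocytes, read 85.9, 71.1, 70.9, 82.9 and 78.2 CPM at 4 weeks and 30.6, 36.3, 37.6, 40.3 and 29.5 CPM at 12 weeks. Its ages did not overlap, and it fell by 1.16 with an edgeR adjusted p of 3.78e-06. Enpp6, another marker of newly formed oligodendrocytes, fell by 0.99. Of the 16 tested members of the progenitor list 9 were lower and 0 higher, against 12.2% and 10.6% of all genes. Their median log2 fold change was -0.33, and leaving out 1 library left 7 to 9 lower. With the GC and length adjustment 5 were lower, and without the pair 7. Pdgfra, the receptor that defines progenitors, fell by 0.41, with Cspg4 at -0.57, Olig1 at -0.58 and Sox10 at -0.35.

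Among 24 myelin and mature oligodendrocyte genes 12 were lower and 4 higher, with a median of -0.29, or 12 and 2 after the GC and length adjustment. The shares of all genes as fitted were 12.2% and 10.6%. The 12 included the structural myelin proteins Mbp, Mog, Mag, Mobp, Cnp and Cldn11. Mbp, myelin basic protein, read 1769, 869, 1016, 1709 and 952 CPM at 4 weeks and 696, 667, 638, 528 and 583 CPM at 12 weeks. The 4-week libraries 142 and 914 were the high ones, the ages did not overlap, and the log2 fold change was -1.02 ± 0.20 (edgeR adjusted p = 0.00254). Without those libraries it was -0.61 with an adjusted p of 0.00151. Cldn11, the tight junction protein of myelin, leaned less on them. It read 119, 95.6, 98.4, 100.2 and 89.6 CPM against 45.9, 59.6, 48.03, 57.1 and 46.04 CPM, with log2 fold changes of -0.97 ± 0.09 over all libraries and -0.89 without 142 and 914. Mog (-0.76 ± 0.08) fell too, and Mbp, Cldn11 and Mog were all called in HET, KO and HP.

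The 4 rises were Hapln2, Apod, Anln and Ermn, of which Hapln2 is a link protein of the node of Ranvier and Apod a lipid carrier of mature oligodendrocytes. Apod read 65.2, 52.8, 69.7, 85.8 and 77.3 CPM at 4 weeks and 96.1, 104, 88.5, 96.1 and 90.3 CPM at 12 weeks without overlap (0.44 ± 0.10, adjusted p = 0.00832 by edgeR), and after the GC and length adjustment its adjusted p was 0.106. Hapln2 rose by 0.47, but its adjusted p passed 0.05 in 8 of the 10 fits that left out 1 library, up to 0.0789 without 12-week library 4. The number of rises was 2 without 12-week library 2 or 4, or 4-week library 23, 914 or 92. The sum of the 24 genes was 3669 to 5907 CPM at 4 weeks and 2551 to 2886 CPM at 12 weeks.

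Ncan and 5 other genes of the brain's extracellular matrix fell. Ncan, the chondroitin sulphate proteoglycan neurocan that is prominent in the juvenile brain, read 550.3, 428, 394, 569 and 439.7 CPM at 4 weeks and 216, 209.6, 249, 223 and 227 CPM at 12 weeks. The lowest 4-week library was well above the highest 12-week library, and the log2 fold change was -1.08 ± 0.11 (edgeR adjusted p = 3.38e-05), or -0.91 without libraries 142 and 914. Of 18 members of the perineuronal net and matrix list 6 were lower and 0 higher (median -0.19), against 12.2% and 10.6% of all genes. With the GC and length adjustment 4 were lower and 1 higher. Without the pair 5 of 19 were lower and 1 higher. The 6 were Ncan, Adamts4, an enzyme that cleaves these proteoglycans (-0.87 ± 0.07), the juvenile matrix protein tenascin-C, Tnc (-0.86), the proteoglycans Vcan (-0.54) and Bcan (-0.50), and Timp2 (-0.26). The net components Acan and Hapln4 did not pass the test as fitted. Acan, the core proteoglycan of nets, read 7.81, 8.83, 8.95, 7.61 and 9.75 CPM against 10.2, 12.02, 8.36, 8.57 and 8.12 CPM (0.14 ± 0.12, adjusted p = 0.43 by edgeR). Hapln4, a link protein of nets, was at 0.21 ± 0.09 with an adjusted p of 0.124. Without libraries 142 and 914 the adjusted p of Hapln4 was 0.00153 at 0.36, and in HET Hapln4 rose by 0.40 (adjusted p = 0.00414).

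Of 29 collagen and basement membrane genes 13 were lower and 0 higher, against 12.2% and 10.6% of all genes, with a median log2 fold change of -0.29. The adjustment for GC and length gave 9 lower and a median of -0.07, and 12 were lower without the pair. In HET 17 and in KO 12 members were lower, where 13.6% and 10.9% of all genes were. The fibrillar collagen Col3a1 read 6.69, 9.34, 12.9, 15.2 and 18.01 CPM at 4 weeks and 6.29, 3.77, 2.48, 4.87 and 4.82 CPM at 12 weeks, without overlap (-1.48 ± 0.26, edgeR adjusted p = 0.00137). Col1a1 fell by 1.10 with overlapping ages, since 4-week library 142 and 12-week library 1 crossed, and its adjusted p was 0.0123 as fitted and 0.062 after the GC and length adjustment. In the basement membrane, Col4a1 (-0.73 ± 0.16), the nidogens Nid1 (-0.73) and Nid2 (-0.91), the laminins Lamc1 (-0.68) and Lamb1 (-0.57) and perlecan, Hspg2 (-0.78), fell. Col4a1 was at 55.3 CPM in 12-week library 1 and at most 33.8 CPM in the other 12-week libraries, and its adjusted p after the GC and length adjustment was 0.0561. Sparc, a collagen-binding matrix protein of glia and endothelium, fell by 0.81, and the collagen chaperone Serpinh1 by 0.39.

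Vascular genes moved in part with these. Of 20 endothelial and mural genes 5 were lower and 1 higher (median -0.16), or 4 and 0 after the GC and length adjustment and 5 and 0 without the pair. As fitted, 12.2% of all genes were lower and 10.6% higher. Rgs5, a pericyte signalling regulator, read 84.03, 54.3, 70.3, 101 and 71.5 CPM at 4 weeks and 37.8, 30.5, 34.5, 38.4 and 35.3 CPM at 12 weeks, without overlap (-1.11 ± 0.13, adjusted p = 7.55e-05 by edgeR). Kdr, the VEGF receptor of growing vessels, fell by 1.09, and Slco1a4 (-0.58), Mfsd2a (-0.54) and Pdgfrb (-0.36) fell. The pan-endothelial genes Cldn5, Pecam1 and Cdh5 were at -0.40, 0.01 and -0.13 and did not pass the test. Acta2, the smooth muscle actin, rose by 0.86, but its adjusted p passed 0.05 in 7 of 10 fits that left out 1 library, up to 0.0982 without 12-week library 4.

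Among 20 astrocyte genes 4 were lower and 0 higher (median -0.19). Of all genes tested 12.2% and 10.6% were, and of the most abundant bin 26.5% and 2.70%. After the GC and length adjustment 3 astrocyte genes were lower. Without the pair 3 were lower and 1 higher and the median was -0.01. The number lower was 2 without 12-week library 1 or 5 or 4-week library 913, 914 or 92. Slc1a2, the main glutamate transporter of astrocytes, read 5045, 3559, 3479, 6335 and 4047 CPM at 4 weeks and 2640.4, 2586, 2402, 2195 and 2094 CPM at 12 weeks. The ages did not overlap and it fell by 0.91 (edgeR adjusted p = 0.00417), or by 0.64 without libraries 142 and 914. Gfap (-0.10 ± 0.17), the filament protein of reactive astrocytes, did not pass the test and ranged widely at 4 weeks, from 46.1 to 94.9 CPM. In the 4-week libraries 142 and 914, 13 of the 20 astrocyte genes were higher than in the other 3 4-week libraries, against 22.9% of all genes.

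Microglial genes gave few calls. Of 19 tested members 2 were higher and 2 lower, near the 10.6% and 12.2% of all genes, with a median of 0.07. The counts were 1 and 1 after the GC and length adjustment, and 4 and 2 without the pair. The lysosomal protease Ctss (0.37 ± 0.07) and the complement gene C1qb (0.28 ± 0.07) rose, and Fcrls (-0.37 ± 0.07) and the growth factor receptor Csf1r (-0.23 ± 0.07) fell. The adjusted p of Csf1r passed 0.05 in 4 of 10 fits that left out 1 library, up to 0.0715 without 12-week library 5. The list had 5 members higher and 1 lower without 4-week library 914, and 1 lower without 12-week library 1, 2 or 5. P2ry12 and Tmem119, which define resting microglia, were at 0.08 and -0.11 and did not pass the test. C4b read 5.34, 4.78, 9.01, 8.61 and 13.8 CPM at 4 weeks and 15.1, 14.98, 9.92, 12.8 and 11.8 CPM at 12 weeks and just missed the threshold (0.64 ± 0.23, adjusted p = 0.057 by edgeR).

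Of 16 interferon and MHC class I genes 5 were higher and 0 lower (median 0.29), against 10.6% and 12.2% of all genes. The same counts were found after the GC and length adjustment and in HET, with 1 higher in KO. The 5 were Ifit3, an interferon-induced antiviral protein, Ifi27, the MHC class I genes B2m and H2-D1, and the immunoproteasome subunit Psmb9. Ifit3 read 5.62, 5.47, 7.07, 6.24 and 5.63 CPM at 4 weeks and 10.2, 7.90, 10.2, 8.54 and 7.80 CPM at 12 weeks, all 12-week libraries being higher (0.57 ± 0.11, edgeR adjusted p = 0.00298). It was not called in KO (-0.21), where it ran from 5.44 to 18.1 with a median of 6.31 CPM at 4 weeks and from 6.90 to 8.90 with a median of 7.86 CPM at 12 weeks, so that the median was higher at 12 weeks while the highest library was a 4-week one. B2m rose by 0.39 and H2-D1 by 0.34. The number higher was 2 without 4-week library 23, and 3 without 12-week library 1, 2 or 4 or 4-week library 142 or 913.

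**Figure D3:**
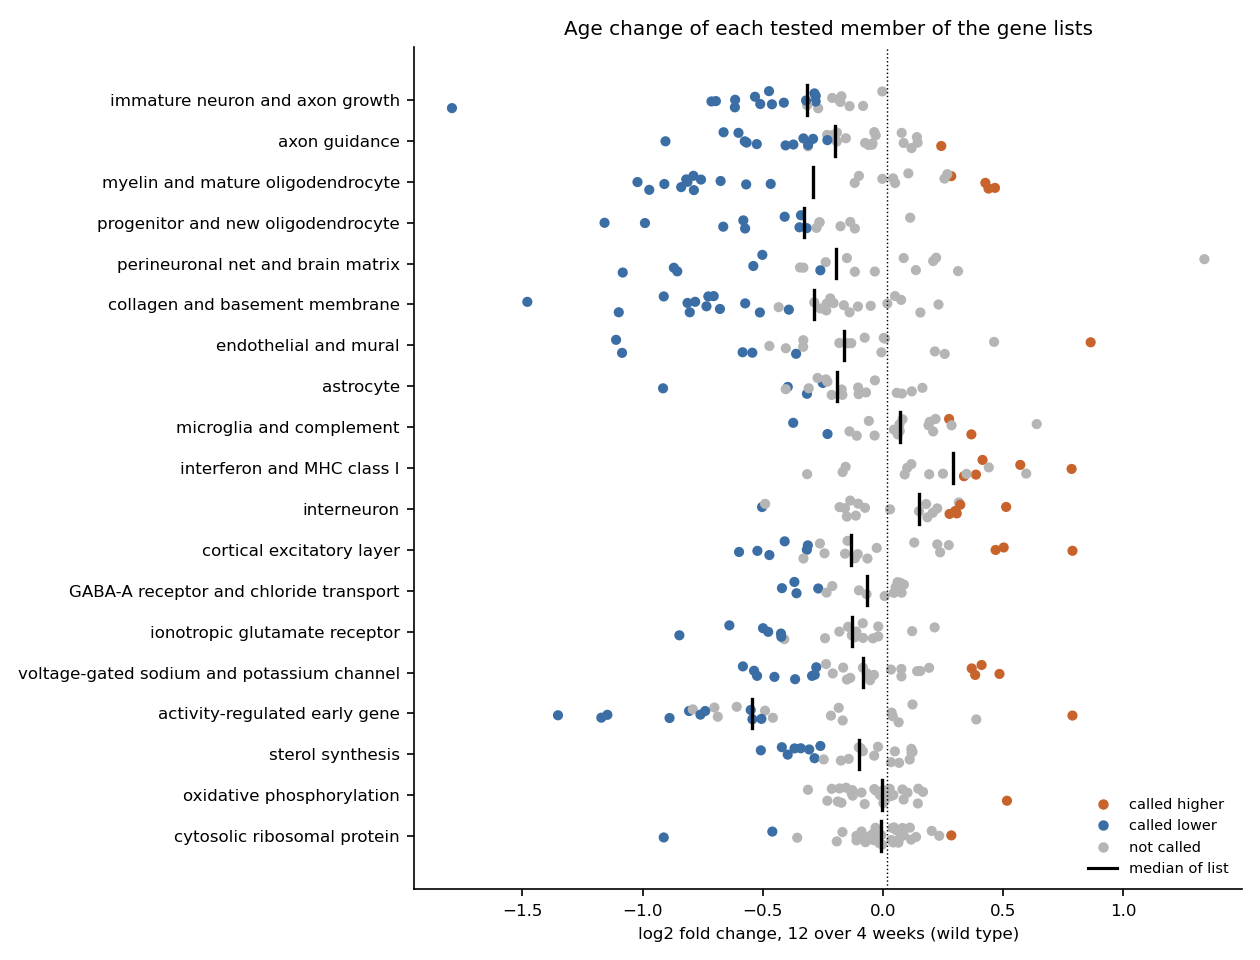
Log2 fold change, 12 against 4 weeks in WT SSC, of the tested members of 19 gene lists (dots). Orange and blue dots are called higher and lower, grey dots are not called, the black bar is the list's median and the dotted line the median of all genes at 0.02. The immature neuron list (14 of 24 lower) and the collagen list (13 of 29 lower) hold no called rise.

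Among neuronal identity genes, layer genes went both ways. Of 22 cortical excitatory and layer genes 6 were lower and 3 higher (median -0.13). Of all genes tested 12.2% and 10.6% were, and of the most abundant bin 26.5% and 2.70%. After the GC and length adjustment 2 were lower and 4 higher. Without the pair 4 were lower and 3 higher. Cux2, a homeobox gene of layers 2 to 4, read 339, 268, 297, 382 and 315 CPM at 4 weeks. Its 12-week values given above all lay lower, and the log2 fold change was -0.52 ± 0.10 (edgeR adjusted p = 0.003, or 0.0883 after the adjustment). Rorb, the layer 4 receptor (-0.47), Neurod2 (-0.41) and Cux1 (-0.31) fell too. The deep-layer genes Fezf2, Foxp2, Tle4 and Tbr1 were at 0.13, -0.24, -0.15 and -0.06 and did not pass the test. Slc17a7 was at -0.60 ± 0.17 with an adjusted p of 0.0187, which became 0.0521 without 12-week library 2. Libraries 142 and 914, at 2697 and 2489 CPM, stood above the other 4-week libraries, and without both it was -0.31. The rises were Rspo1, a Wnt pathway ligand (0.50 ± 0.09), Neurod6 (0.47) and Nr4a2, a nuclear receptor of deep-layer and claustral neurons (0.79 ± 0.15).

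Interneuron genes held more rises than falls. Of 21 tested members 5 were higher and 1 lower (median 0.15), against 10.6% and 12.2% of all genes. After the GC and length adjustment 3 were higher and 2 lower, and without the pair 5 and 0. Pvalb, the calcium-binding protein of fast-spiking interneurons, read 90.9, 74.05, 77.2, 102 and 72.2 CPM at 4 weeks and 96.1, 108, 96.6, 101 and 102 CPM at 12 weeks, and 4-week library 914 lay within the older range with 142 just below it. It rose by 0.28 with an edgeR adjusted p of 0.0375. That value passed 0.05 in 7 of 10 fits that left out 1 library, up to 0.0887 without 4-week library 92, and was 0.596 after the GC and length adjustment. Without libraries 142 and 914 the rise was 0.43 (adjusted p = 0.000773), and it was called in HET (0.48) and KO (0.34). Vip, the neuropeptide of another interneuron class, rose by 0.30 with all 12-week libraries above all 4-week libraries, and its adjusted p was 0.812 after the GC and length adjustment. The serotonin receptor Htr3a (0.51 ± 0.15), the calcium-binding Calb2 (0.32) and the synaptotagmin Syt2 (0.31) rose. The adjusted p of Htr3a passed 0.05 in 2 of 10 such fits, up to 0.0559 without 12-week library 3, and that of Calb2 in 8 of 10, up to 0.109 without 4-week library 92. The number higher was 2 without 12-week library 3 or 4, and 3 without 12-week library 2 or 5 or 4-week library 913 or 92. Sst (-0.07 ± 0.15) and Gad1 (0.15 ± 0.11), the enzyme of GABA synthesis, did not pass the test, and Cck fell by 0.50.

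GABA-A receptor genes gave falls and no rise as fitted. Of 15 tested genes of receptor subunits and chloride transport 4 were lower and 0 higher (median -0.07). Of all genes tested 12.2% and 10.6% were, and of the most abundant bin 26.5% and 2.70%. Without the pair 4 were lower and 1 higher with a median of 0.00, and in HET 2 were lower and 3 higher. The number lower was 3 after the GC and length adjustment, and 2 without 12-week library 1 or 2. The subunits Gabrg3 (-0.37 ± 0.10) and Gabra4 (-0.27) and the chloride transporters Slc12a2, NKCC1 (-0.36), and Slc12a5, KCC2 (-0.42), fell. The adjusted p of Slc12a5 passed 0.05 in 7 of 10 fits that left out 1 library, up to 0.097 without 12-week library 4. The subunit Gabra5 was at 0.05 ± 0.10 and did not pass the test.

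Of 21 ionotropic glutamate receptor genes 6 were lower and 0 higher (median -0.13), with 2 lower and 1 higher after the GC and length adjustment and 7 and 1 without the pair. As fitted, 12.2% of all genes tested were lower and 10.6% higher, and in the most abundant bin 26.5% and 2.70%. The kainate receptor subunit Grik5 read 403, 275, 292, 396 and 276 CPM at 4 weeks and 177, 136, 209, 199.8 and 191 CPM at 12 weeks. The ages did not overlap and it fell by 0.85 (edgeR adjusted p = 0.000978), remaining called after the adjustment at 0.006. The AMPA receptor auxiliary subunits Cnih2 (-0.64 ± 0.12) and Cacng8 (-0.42) fell, with the NMDA receptor subunits Grin1 (-0.50), Grin2c (-0.48) and Grin2d (-0.42). Grin2b and Grin2a, known to exchange places in NMDA receptors early in life, were at -0.41 ± 0.21 and -0.18 ± 0.11 and did not pass the test. Grin2b fell in HET (-0.55, adjusted p = 0.0225) and KO (-0.68, adjusted p = 0.0167). The AMPA receptor subunits Gria1 to Gria4 lay between -0.14 and -0.02 and none passed the test.

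Of 27 voltage-gated sodium and potassium channel genes 8 were lower and 4 higher (median -0.08), or 5 and 5 after the GC and length adjustment and 7 and 6 without the pair. The shares of all genes as fitted were 12.2% lower and 10.6% higher, and in the most abundant bin 26.5% and 2.70%. The beta subunit Scn4b, which supports resurgent sodium current, read 251, 264, 206, 218 and 209.5 CPM at 4 weeks and 285, 340.4, 328, 323 and 331 CPM at 12 weeks, the ages not overlapping (0.49 ± 0.09, edgeR adjusted p = 0.00215). Kcns3, a modifying potassium subunit of parvalbumin interneurons, rose by 0.41 and was called in HET and KO. Kcna6 fell by 0.58, Kcnc4 by 0.52, and the embryonic sodium channel Scn3a by 0.45. Scn1a and Kcnc1, both known for fast-spiking interneurons, were at -0.05 ± 0.11 and -0.15 ± 0.10 and did not pass the test.

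Activity-regulated early genes, which are transcribed within minutes of synaptic input, had 10 of 25 tested members lower and 1 higher, with a median of -0.54. The shares of all genes were 12.2% and 10.6%. The number of early genes called lower depended on single libraries. It was 4 without 12-week library 4 and ran up to 13 over the fits that left out 1 library. It also moved by over 1.5 times without 12-week library 1 or 4-week library 914. After the GC and length adjustment 4 were lower and 1 higher, and without the pair 8 and 1. Without 4-week libraries 23 and 913 the number lower was 5, and without 4-week library 142 and 12-week library 3 it was 13. Summed over the list, the 4-week libraries read 1582, 2118, 2085, 2840 and 2111 CPM and the 12-week libraries 1143, 1733, 1798, 1197 and 1349 CPM. The 4-week library 142 overlapped with the older group.

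Egr4, a zinc finger transcription factor, read 39.9, 42.4, 35.4, 56.7 and 37.8 CPM at 4 weeks and 15.3, 17.3, 24.9, 17 and 19.6 CPM at 12 weeks, without overlap, and fell by 1.17 (edgeR adjusted p = 8.07e-05). Egr4 was also called lower in HET (-0.93) and KO (-0.82). Arc, whose protein drives removal of AMPA receptors from synapses, read 206, 454, 456, 766 and 436 CPM at 4 weeks and 60.7, 306, 242, 192 and 246 CPM at 12 weeks. The 4-week library 142 lay within the older range, and the log2 fold change was -1.15 ± 0.35 (adjusted p = 0.0315 by edgeR). It was no longer called without 12-week library 4 or without 4-week library 914, with an adjusted p of up to 0.0817 without the latter. Fos, the archetypal early gene, did not pass the test at -0.70 ± 0.34 (adjusted p = 0.151), and read 15.4, 38.8, 47.8, 46.2 and 41.1 CPM at 4 weeks and 9.35, 21.8, 44.4, 15.3 and 25.7 CPM at 12 weeks. Dusp6 (-0.74) and Trib1 (-0.89), chosen after their values were seen, fell in WT under every fit that left out 1 library, whereas Nr4a1, Egr2, Egr1 and Dusp1 lost the call in 5 to 8 of the 10, with adjusted p values of up to 0.101 for Egr2 without 12-week library 2. The only rise was Nr4a2, at 9.85, 10.1, 8.50, 7.05 and 7.79 CPM against 11.8, 16.7, 16.5, 19.3 and 10.7 CPM, without overlap (0.79 ± 0.15, edgeR adjusted p = 0.00266).

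The promoters of this list were searched because many of its members are known targets of the cAMP pathway. A high share of matches was therefore likely beforehand and says nothing of the age change. In the 250 bases before each gene's start in RefSeq (GRCm38.p6), the core letters TGACG of the cAMP response element, on either strand, occurred in 17.8% of 32851 promoters, in at least 1 promoter of 19.8% of 27025 genes, and in 14 of the 18 list members with an entry. The 14 were Bdnf, Btg2, Dusp1, Dusp5, Egr2, Egr4, Fos, Fosb, Homer1, Junb, Npas4, Nr4a1, Nr4a2 and Nr4a3. The full palindrome TGACGTCA, which contains the core, was found in 1.55% of promoters and in Btg2 and Dusp1, and the AP-1 letters TGANTCA in 6.75% and in Bdnf. The CArG box occurred in 1.47% and in Egr2 and Dusp5. A match describes letters only, and a part of this pathway in the age change was not tested. Shown here are the 150 bases before the start of 4 of the 14, picked after their calls were seen to cover genes called lower, called higher and not called, with each TGACG or its reverse complement CGTCA in capitals, read 5′ to 3′ on the gene's strand. They are Egr2 (chr10:67537719-67537868, plus strand, called lower), Nr4a1 (chr15:101266696-101266845, plus, called lower), Nr4a2 (chr2:57124004-57124153, minus, called higher) and Fos (chr12:85473740-85473889, plus, not called).
Egr2: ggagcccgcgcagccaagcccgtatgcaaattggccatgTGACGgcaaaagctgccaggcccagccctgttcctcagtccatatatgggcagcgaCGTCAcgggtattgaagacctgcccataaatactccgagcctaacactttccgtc
Nr4a1: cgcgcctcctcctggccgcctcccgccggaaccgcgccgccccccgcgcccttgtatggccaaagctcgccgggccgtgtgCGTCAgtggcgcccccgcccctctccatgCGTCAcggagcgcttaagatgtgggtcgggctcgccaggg
Nr4a2: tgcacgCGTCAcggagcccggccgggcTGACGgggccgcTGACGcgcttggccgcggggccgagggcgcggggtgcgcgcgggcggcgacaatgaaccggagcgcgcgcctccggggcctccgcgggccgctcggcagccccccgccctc
Fos: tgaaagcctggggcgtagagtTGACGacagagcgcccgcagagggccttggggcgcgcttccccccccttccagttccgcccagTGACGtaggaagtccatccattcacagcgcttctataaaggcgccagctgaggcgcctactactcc
The windows of Egr2, Nr4a1 and Fos hold 2 copies each and that of Nr4a2 holds 3, and the copy nearest to the start lies 51, 36, 62 and 107 bases before it in that order. Egr2 has 5 listed starts, and the other 4 windows hold 0, 0, 2 and 1 copies. By the choice of genes, the windows cover genes called lower, called higher and not called, and each holds the core. Fos, though not called, had the same sign as Egr2 and Nr4a1.

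In the other genotypes fewer early genes were called lower. In HET 0 of 25 were higher and 3 lower with a median of 0.01, where 14.0% of all genes were higher and 13.6% lower. In KO 5 were higher and 3 lower with a median of 0.27, where 9.9% and 10.9% of all genes were. In number of signs, 19 of 25 members were below 0 in WT, 11 in HET and 4 in KO. Arc in HET ran from 253 to 407 with a median of 288 CPM at 4 weeks and from 158 to 449 with a median of 302 CPM at 12 weeks, a log2 fold change of 0.00 ± 0.23 (edgeR adjusted p = 0.998). In KO Arc ran from 60.1 to 201 with a median of 114 CPM at 4 weeks and from 168 to 391 with a median of 319 CPM at 12 weeks, which is a rise of 1.30 ± 0.29 (adjusted p = 0.00646). The difference of the age change between KO and WT was 2.44 ± 0.49 for Arc, with the lowest p of all 16358 genes tested in that fit, but its edgeR adjusted p was 0.405, so the difference did not pass the test. DESeq2 called it with an adjusted p of 0.0182.

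**Figure D4:**
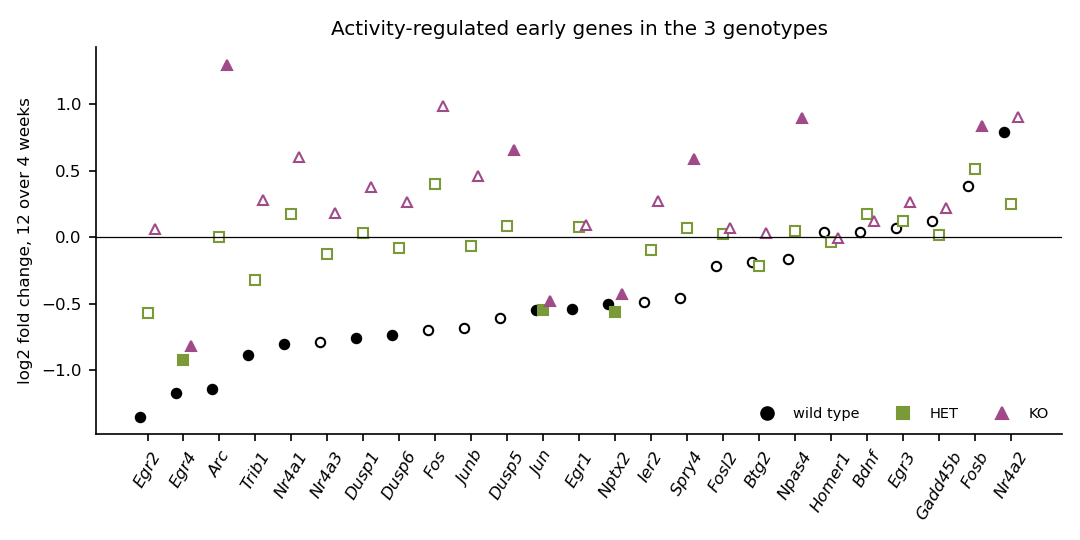
Log2 fold change at 12 against 4 weeks of 25 activity-regulated early genes in SSC of WT (circles), HET (squares) and KO (triangles). Filled symbols are called. In WT 10 are called lower, in HET 3, and in KO 5 are called higher and 3 lower, and no difference between genotypes passed the edgeR test.

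Of 23 sterol synthesis genes 8 were lower and 0 higher (median -0.10), against 12.2% and 10.6% of all genes. The number lower was 7 after the GC and length adjustment, 7 without the pair, and 7 to 9 when 1 library was left out. The late enzyme Dhcr7 (-0.40), the early enzyme Hmgcs1 (-0.34) and the regulator Srebf2 (-0.31) fell. Idi1, Fdft1 and Fdps, in the middle of the pathway, did not pass the test (0.12, 0.12 and -0.02).

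Among the gene lists, the counts of oxidative phosphorylation and ribosomal protein genes changed most without the 4-week libraries with few whole-number values. As fitted, 1 of 30 oxidative phosphorylation genes was higher and 0 lower (median -0.01), the 1 being Cycs, cytochrome c (0.52 ± 0.09, edgeR adjusted p = 0.00169). Without libraries 142 and 914, 17 of 30 were higher and 0 lower (median 0.17), where 9.36% of all genes were higher. Of 33 cytosolic ribosomal protein genes 1 was higher and 2 lower as fitted (median -0.01), and 16 higher and 0 lower without the pair (median 0.24). As fitted, 10.6% of all genes tested were higher and 12.2% lower. After the GC and length adjustment 1 oxidative phosphorylation gene was higher and 1 lower, and 0 and 2 ribosomal genes were. The list sums show the split. The oxidative phosphorylation genes summed to 6704, 4926, 4765, 7128 and 4672 CPM in the 4-week libraries 142, 23, 913, 914 and 92, and to between 5223 and 5365 CPM at 12 weeks. The ribosomal genes summed to 4402, 3207, 3428, 5454 and 3209 CPM at 4 weeks and to between 3488 and 4200.1 CPM at 12 weeks. The 12-week libraries thus lay below 142 and 914 and above the other 3 in both lists. In 142 and 914 together, 29 of the 30 and 31 of the 33 genes were higher than in the other 3 4-week libraries, against 22.9% of all genes tested. The same held for 13 of 20 astrocyte, 14 of 24 immature neuron, 15 of 27 channel and 10 of 21 glutamate receptor genes. It held for 2 of 29 collagen and 1 of 25 early genes. HET has no SSC library with few whole-number values. There 10 of the 30 oxidative phosphorylation and 18 of the 33 ribosomal genes were higher at 12 weeks (medians 0.12 and 0.24), where 14.0% of all genes were. In KO, where 2 of the 5 4-week libraries have few whole-number values, 1 of 30 and 1 of 33 were higher. The part of those libraries in these results beyond the values given was not tested.

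**Figure D5:**
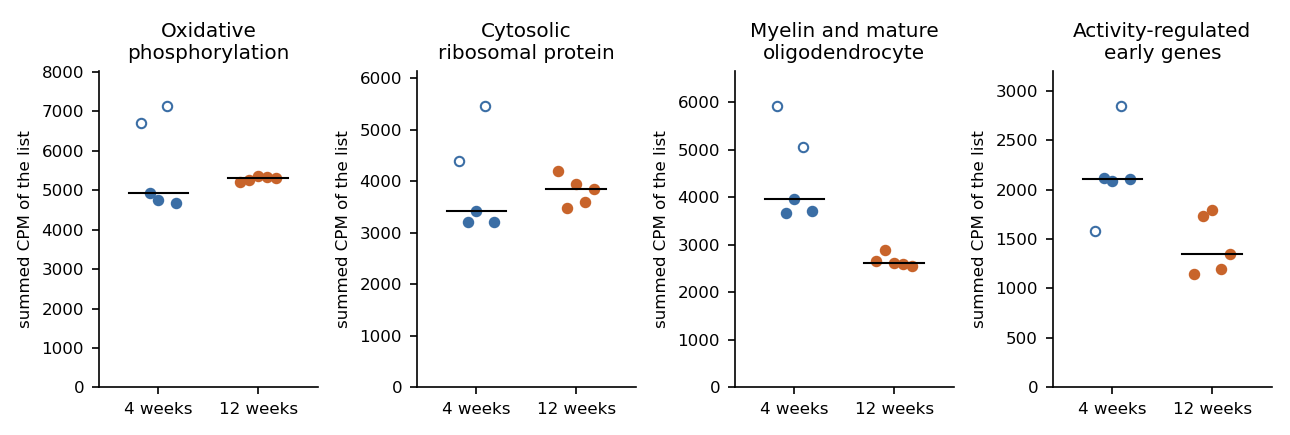
Summed CPM per library of 4 gene lists in WT SSC. Dots are libraries and open circles mark the 4-week libraries 142 and 914. The pair stands above the other 4-week libraries for the oxidative phosphorylation, ribosomal and myelin lists, whereas in the activity list 142 is the lowest 4-week library (1582 CPM) and 914 the highest (2840 CPM).

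Markers of neighbouring tissue were checked for the dissection. Of all genes tested 10.6% were higher and 12.2% lower as fitted. These shares were 6.67% and 7.56% after the GC and length adjustment, and 9.36% and 10.2% without the pair. Choroid plexus genes summed to 3.46 to 4.97 CPM at 4 weeks and 3.61 to 6.59 CPM at 12 weeks, and 0 of 7 were called. Meningeal fibroblast genes summed to 459 to 866 CPM (median 519) against 551 to 819.9 CPM (median 767). Of 12 such genes 2 were higher, Aox3 (0.94) and Ogn (0.67), and the list's median log2 fold change was 0.43. The number higher was 1 without 12-week library 1 or 4 or 4-week library 142 or 913, and 4 without 4-week library 92, and 1 after the GC and length adjustment. Of 12 striatal genes 3 were lower and 1 higher, or 4 and 1 after the GC and length adjustment and 5 and 1 without the pair. The dopamine receptor Drd2 read 0.382, 4.43, 1.49, 0.0975 and 0.282 CPM at 4 weeks and Adora2a, the adenosine receptor of the same striatal neurons, 1.76, 9.48, 4.36, 2.47 and 2.02 CPM, so that libraries 23 and 913 held more of both. At 12 weeks Drd2 was at most 0.322 and Adora2a at most 1.52 CPM. The fall of Drd2 lost its call without 4-week library 23 (adjusted p = 0.0805). Without libraries 23 and 913 together, an alternative chosen after seeing the data, 12 of 25 immature neuron, 12 of 24 myelin and 14 of 29 collagen genes were lower. Of all 15858 genes tested in that fit, 1753 were lower and 1226 higher. The rises then numbered 1 in the myelin, 2 in the interneuron and 2 in the interferon list, fewer than over all libraries. Hippocampal genes had 3 of 7 lower, 2 after the GC and length adjustment, with Fibcd1, a marker of hippocampal field CA1 that cortex also expresses, at -0.68 ± 0.11. Thalamic genes had 2 of 10 higher and 1 lower, or 1 and 1 after the GC and length adjustment and 0 and 1 without the pair. Of the 5 blood genes (median -1.67) edgeR called Bpgm alone (0.18), and no haemoglobin gene, while limma-voom called 1 higher and 1 lower and 0 were called after the GC and length adjustment. The blood list was highest in 4-week libraries 142 and 914, at 88.6 and 98.3 CPM against 46.7 to 55.8 CPM in the other 3. The part of these tissues in the changes above was not tested.

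Clock and stress-hormone genes gave few calls. Of all genes tested 10.6% were higher and 12.2% lower as fitted, and 6.67% and 7.56% after the GC and length adjustment. Of 16 circadian genes Arntl rose (0.27 ± 0.06) and Per1 fell (-0.80 ± 0.26), with the call of Per1 lost in 7 of 10 fits that left out 1 library, up to 0.0932 without 4-week library 914. Per2 and Dbp did not pass the test. After the GC and length adjustment 1 clock gene was higher and 0 lower, and without the pair 2 and 0. Of 12 glucocorticoid-responsive genes 1 was called, Plin4, a lipid droplet protein, at 0.305, 0.512, 0.363, 0.553 and 0.400 CPM in the 4-week libraries and 0.751, 3.98, 2.57, 10.6 and 2.73 CPM in the 12-week libraries (3.27 ± 0.55, edgeR adjusted p = 0.00118), and 2 were higher after the GC and length adjustment. Fkbp5, the textbook glucocorticoid target, was at 0.34 ± 0.14 with an adjusted p of 0.0905. Of 18 cell cycle genes 2 were higher and 1 lower, or 0 and 1 after the GC and length adjustment and 1 and 1 without the pair, all small: Ccnd2 fell by 0.53, and the rises of Birc5 and Pcna were lost in 9 and 7 of the fits that left out 1 library, with adjusted p values up to 0.109 without 4-week library 142 and 0.0875 without 4-week library 92.

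The age change was measured again in the other genotypes of the same region, in separate libraries. In HET 4327 genes were called (27.6%) and in KO 3281 (20.8%). In HET 2191 were higher and 2136 lower, and after the GC and length adjustment 1875 and 1133, so that 62.3% of its calls were then higher. Of the 3574 WT calls tested in HET 3545 had the same sign (99.2%), and of the 3572 tested in KO 3516 had (98.4%), against 80.4% and 82.5% of all genes tested in both. Called in the same direction were 2583 genes in WT and HET (72.2% of the WT calls and 59.7% of the HET calls) and 2298 in WT and KO (64.2% and 70.0%). In all 3 genotypes 1971 genes were called in the same direction, 788 higher and 1183 lower. No gene was called in opposite directions in WT and HET, and 2 were in WT and KO. Across genes, Pearson's r of the log2 fold changes was 0.77 with HET and 0.76 with KO, over genes that share the same collections. The test of the difference of the age change from WT called 0 of 16358 genes for HET and 0 for KO by edgeR, with 395 and 468 genes at an unadjusted p under 0.05. DESeq2 called 0 and 1, the 1 being Arc.

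The age change of WT SSC was set beside that of 2 other regions. In WT PFC 2204 genes were called (13.8%, with 6.01% higher and 7.79% lower) and in WT HP 2077 (12.9%, with 5.75% higher and 7.1% lower). Of the WT SSC calls tested there, 94.6% had the same sign in PFC and 85.5% in HP. The same-sign share over all genes was not computed for these regions, so both percentages lack a background. In both regions too, age and collection cannot be told apart, and the rho with GC content had the same sign as in SSC. Called in the same direction were 1397 genes in SSC and PFC (39.0% of the SSC calls and 63.4% of the PFC calls) and 1079 in SSC and HP (30.1% and 51.9%). The test of the difference from PFC called 1 of 16349 genes (0.00612%), with 1178 at an unadjusted p under 0.05. This was Ccdc3, a secreted protein of vessels and fat, which fell in SSC (-0.37) and rose in PFC (0.75), a difference of -1.10 ± 0.16 (edgeR adjusted p = 0.00684). It read 15.1, 13.4, 16.1, 14.98 and 19.3 CPM at 4 weeks and 12.2, 14.1, 11.7, 11.7 and 11.2 CPM at 12 weeks in SSC, the ages overlapping. DESeq2 called 22 genes.

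The test of the difference from HP called 15 of 16656 genes (0.0901%), 8 with the higher change in SSC (0.048%) and 7 with the lower (0.042%). Trim67, a ubiquitin ligase that binds the netrin receptor DCC, had the lowest p (adjusted p = 0.000843): it fell by 1.43 in HP and was at -0.32 in SSC, where it did not pass the test. Marcksl1 fell more in SSC than in HP, where it fell by 0.84, a difference of -0.95. Slc29a4, a monoamine transporter, fell by 1.10 in SSC with no call in HP (0.11). Elk3, an ETS transcription factor of vessels, fell by 0.63 in SSC and was at 0.13 in HP. Myoc, myocilin, rose by 0.85 in SSC (8.09, 11.7, 13.1, 9.91 and 14.3 CPM to 20.6, 15.4, 28.9, 20.7 and 17.8 CPM, no overlap) and fell by 0.63 in HP. The count of 15 rested on single libraries. Of SSC, leaving out 12-week library 4, 2, 5 or 1 gave 2, 4, 7 or 9 genes, and 4-week library 142 or 914 gave 3 or 4. Of HP, leaving out 4-week library 92, 913 or 42 gave 151, 41 or 28, and 12-week library 2 or 5 gave 3 or 24. It was 1 without the libraries of few whole-number values, the 1 being Trim67, and 360 by DESeq2.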

How the data were processed

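Bulk RNA-seq was measured in SSC, PFC and HP libraries grouped by their labels. The deposited values are expected counts per gene symbol (28338 symbols, of whose values above 0 77.9% are not whole), made with Salmon against mm10 per the submitters' processing notes (version not given in the sources used here). Whether the counting used strand is not given there either. Genes that overlap or have near-identical copies are therefore uncertain. No column was left without a sample (0).

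Expected counts were rounded and fitted with edgeR 4.0.16 in R 4.3.3: TMM scaling, filterByExpr by group, estimateDisp, glmQLFit and glmQLFTest, with no covariate, on the groups compared only. Adjusted p-values are Benjamini-Hochberg over all genes tested, called under 0.05. The SE is the log2 fold change divided by the square root of F. Differences between regions or genotypes were contrasts in 1 fit. The script was tested on simulated data. Replicate libraries of a group all differed by more than counting noise, with chi-square per degree of freedom from 10.9 to 87.8 over 20 pairs. The depth given above limits the precision for low genes, and the spread between libraries limits it for the others.

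The libraries and the 29 gene lists were chosen with earlier results of these data known. The lists cover immature neuron, axon guidance, myelin, progenitor, perineuronal net, collagen, cell cycle, interneuron, cortical excitatory, GABA-A receptor, glutamate receptor, ion channel, early gene, sterol, oxidative phosphorylation, ribosomal, astrocyte, microglia, vascular, meningeal, choroid plexus, blood, striatal, thalamic, hippocampal, clock, glucocorticoid, interferon and sex-linked genes, and a few genes stand in more than 1 list. In the sex-linked list 1 of 4 was called, Ddx3y (higher, 0.29), and 0 after the GC and length adjustment, against 22.8% and 14.2% of all genes tested. Named genes are the 12 largest called rises and falls with average log2 CPM of at least 2, no overlap and a named symbol, up to 2 called rises and falls of each list, list-defining genes whatever their result, and the largest called differences. Other list members named were chosen after their values were seen. Not every gene the rule picks is reported here.

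Alternatives were relative log expression and upper-quartile factors, no low-count filter, DESeq2 1.42.0, limma-voom 3.58.1, 1 surrogate variable (sva 3.50.0), a covariate for few whole-number values, all SSC libraries in 1 fit, glmTreat at 1.5-fold, leaving out each library, leaving out the libraries with under 10% whole-number values, and the replicate number as a block. A GC and length offset (spline, 5 degrees of freedom) and leaving out 2 pairs of libraries were added after seeing the data. Symbols were matched to GENCODE M21 on GRCm38 for 15201 of the tested genes (96.9%), for positions (1-based), GC content and length. Promoters are from RefSeq, GRCm38.p6.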

Additional observations from a re-analysis of the deposited data

Results flagged for a closer look

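In the following genes 1 library stood apart from the other 4 of its age by Dixon's criterion at 95%, which chance alone gives in about 1 of 20 groups. The number of groups screened is not given here, so the number of genes flagged cannot be set against that rate. Of the 4-week libraries, 142 was low for Htr3a (2.62 CPM), Aox3 (0.585) and Fos (15.4) and high for Mog (65.2). Library 914 was high for Csf1r (101), Bpgm (48.4) and Egr1 (838), and 23 was low for Fabp7 (10.04) and Cldn5 (10.4). Of the 12-week libraries, 1 was high for Psmb9 (1.27 CPM), Col4a1 (55.3) and Gfap (76.8) and low for Scn1a (324). Library 2 was low for Sox9 (8.27), 3 was low for Hapln2 (6.76) and high for Fibcd1 (13.4), and 4 was high for Gdf1 (4.48).

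The log2 age change differed between regions, by edgeR's test of the difference itself, for 1 gene against PFC and 15 against HP. Against PFC it was Ccdc3 (-1.10). Against HP the change was lower in SSC for Cort (-1.37), Slc29a4 (-1.20), Marcksl1 (-0.95), Elk3 (-0.77), Dusp18 (-0.76), Chd3 (-0.74) and Abhd2 (-0.57). It was higher in SSC for Ppl (1.99), Myoc (1.49), Pmaip1 (1.30), Trim67 (1.11), Vat1 (0.87), Masp1 (0.74), Dpysl3 (0.62) and H2-T22 (0.53). Cort rose in HP, and Trim67, Vat1 and Dpysl3 fell in HP, each called there.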

How the results depend on the processing

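The count of 3579 genes called in WT SSC was 2659 to 3331 when 1 library was left out (1168 to 1522 higher, 1491 to 1860 lower), and the counts in HET and KO were 3552 to 4300 and 2289 to 3050. Against a change of 1.5-fold, glmTreat called 61 genes, 31 higher and 30 lower. With the GC and length adjustment 2232 were called in WT, 1046 higher and 1186 lower, 3008 in HET, 1875 higher and 1133 lower, and 1945 in KO. Leaving out 4-week library 142 and 12-week library 3 together left 1086 called higher. HET has no SSC library with few whole-number values, so leaving those out could not be run for it. The cause of these shifts was not tested. The difference from PFC (1 gene) was 22 genes with DESeq2, 4 without the libraries of few whole-number values, and 1 to 2 when 1 library was left out. The difference from HP (15) was 360 with DESeq2, 1 without the libraries of few whole-number values, and 2 to 151 when 1 library was left out. The difference of KO from WT was 1 with DESeq2, and 0 to 0 when 1 library was left out, as for HET. Over the alternatives that leave out no single library, the named genes called in WT SSC kept their direction and call in 1156 fits and lost the call in 234. They reversed in 1, Pcna after the GC and length adjustment, at -0.059 (adjusted p = 0.615 by edgeR). When 1 library was left out the call held in 911 fits and was lost in 159.

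Same-numbered libraries of different regions were not treated as paired. Across the 10 pairs of SSC and PFC the correlation of deviations ran from -0.035 to 0.342, with 5 over 0.1 and 7 libraries closest to their own number, and for HP from -0.079 to 0.162, with 2 and 3. With the replicate number as a block, 5 genes differed from PFC and 10 from HP. Of the 15 HP genes, Abhd2, Cort, Marcksl1, Slc29a4 and Trim67 were called under the block as well, and Elk3 and Myoc were at adjusted p values of 0.0543 and 0.0794 by edgeR.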
